A study of Mus musculus with 20 samples.

Results

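The irradiation response of thymocytes was compared between Gfi1 knockout (KO) and wild-type (WT) mice, gene by gene, as the change on irradiation in KO minus the change on irradiation in WT. The comparison used the 10 thymocyte arrays of a series of 20 arrays: irradiated KO thymocytes (3 arrays), untreated KO thymocytes (2 arrays), irradiated WT thymocytes (3 arrays) and untreated WT thymocytes (2 arrays), all labelled C57BL/6. The other 10 arrays hold thymic tumours, with ENU or Notch in their titles, and did not enter it. Genes were included through probe sets that name a single gene, which gave 12747 genes bright enough to test of 19607 named. The series was designed to ask what loss of Gfi1 alters in irradiated or tumour-derived thymocytes. Neither the radiation dose, nor the time after it, nor the Gfi1 allele of these KO animals is stated in the labels. The floxed Gfi1 gene with Mx1-Cre and pIpC injection is described in the labels for tumour mice only. No label says whether arrays of 1 group are different animals, and p-values then measure only the spread between arrays, which may be technical.

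Gfi1 encodes a zinc finger protein that represses transcription in blood stem cells, granulocyte precursors, lymphocytes and the inner ear. In the thymus most cells are CD4 and CD8 double-positive thymocytes, which are among the most radiation-sensitive cells of the body and die by apoptosis after DNA damage. DNA damage stabilises the transcription factor p53, which switches on a cell cycle inhibitor (Cdkn1a), killers of the BCL2 family (Bbc3, Pmaip1) and its own antagonist (Mdm2). Mice without Gfi1 lack mature neutrophils. A gene can differ between irradiated KO and irradiated WT cells because its level differed already in untreated cells, because it responded differently, or both. The values below keep these cases apart.

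The thymocyte label was checked against defining markers. On the log2 scale, Cd3e lay between 13.70 and 13.90 on the 10 arrays, Cd4 between 12.85 and 13.50, Cd8a between 13.37 and 13.57, and the recombinase gene Rag1 between 14.22 and 14.49. The level below which a gene counted as dim, the 40th percentile of an array over genes, lay between 7.85 and 7.99, so these markers were bright on every array. Values of any 2 arrays of a group correlated between 0.98 and 0.996 across genes. The array numbers in the labels run from 45 to 50 for irradiated and from 77 to 80 for untreated thymocytes, and each range holds both genotypes. Irradiation and array number cannot be told apart within a genotype.

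Gfi1 is covered by 8 probe sets, numbered here by their array IDs, and the KO label did not show the same loss in the irradiated and the untreated KO arrays. Probe set 2 read 12.72, 12.72 and 12.74 in irradiated KO thymocytes and 5.62 and 5.67 in untreated KO thymocytes, against 11.56, 11.61 and 11.34 in irradiated WT and 12.07 and 11.83 in untreated WT thymocytes. It was thus high in all arrays except the 2 untreated KO arrays, with a difference in response of 7.53 ± 0.19 (log2 difference ± SE, limma adjusted p = 3.59e-08). Probe set 3 showed the same order with a difference of 3.81 ± 0.17 (limma adjusted p = 3.68e-06). Probe sets 5 to 8 ran the other way. Probe set 7 read 7.25, 7.37 and 6.91 in irradiated KO and 11.13 and 11.05 in untreated KO thymocytes, against 9.33, 9.65 and 9.36 in irradiated WT and 9.95 and 9.84 in untreated WT thymocytes, a difference of -3.47 ± 0.23 (limma adjusted p = 8.21e-05). For probe sets 5, 6 and 8 the difference was -2.96, -2.43 and -2.25, and for probe sets 1 and 4, with 0.30 and 0.90, it did not pass (limma adjusted p = 0.734 and 0.322). Probe set 4 was low in both KO groups, with KO minus WT of -1.35 in irradiated and -2.24 in untreated thymocytes (limma adjusted p = 0.000559 and 0.000107). The other probe sets below WT differed between the KO groups, sets 5 to 8 in irradiated and sets 2 and 3 in untreated KO thymocytes, and which part of the gene each covers was not analysed here. A difference between the KO mice used for the 2 treatments and an effect of irradiation on KO cells cannot be told apart, which holds for every difference in response given here. The gene-level value for Gfi1 of -1.57 averages probe sets of opposite sign (4 of 8 share its sign) and became 0.18 with the mean in place of the median of its probe sets (limma adjusted p = 0.668).

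**Figure D1:**
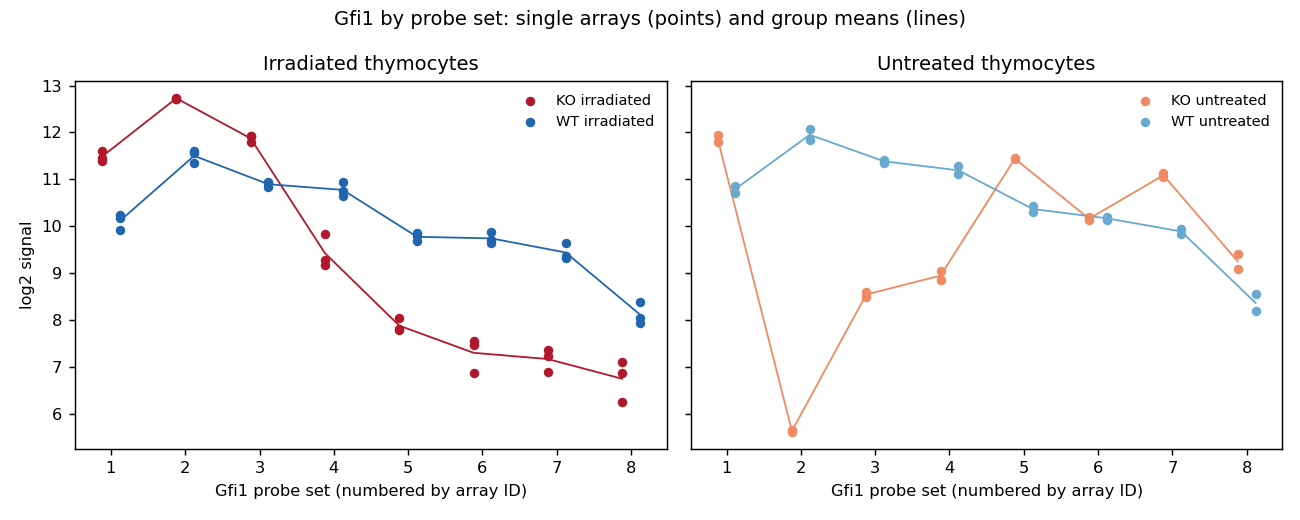
Log2 signal of the 8 Gfi1 probe sets on each array, in irradiated thymocytes (left panel, 3 KO and 3 WT arrays) and untreated thymocytes (right panel, 2 KO and 2 WT arrays), with points for arrays and lines through group means. Probe set 4 was below WT in both KO groups, probe sets 5 to 8 were below WT in irradiated KO thymocytes only, and probe sets 2 and 3 in untreated KO thymocytes only.

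The irradiation responses of the 2 genotypes were correlated across genes, and part of the called changes was shared. Irradiated KO thymocytes had 1925 genes higher (15.1%) and 3021 lower (23.7%) than untreated KO thymocytes at a limma adjusted p below 0.05, and irradiated WT thymocytes had 1651 higher (13%) and 2762 lower (21.7%) than untreated WT thymocytes. With a further quantile normalization the counts were 2434 and 2513 in KO, and 2156 and 2281 in WT. The KO and WT responses, which share no arrays, had a Pearson correlation of 0.803 across the genes tested, which are not independent replicates. Of these genes, 945 rose and 2016 fell in both genotypes. With no called change in the other genotype, 956 rose and 995 fell in KO, and 696 rose and 722 fell in WT. Genes that rose in KO had a median response of 0.42 in KO and 0.29 in WT, and genes that rose in WT had medians of 0.34 in KO and 0.42 in WT. Each such selection favours the genotype it was made in, and the lower median lay in the other genotype both times. Genes that changed by over 2-fold had a called difference in response more often than the 1.88% of all genes. The share was 24.3% of 111 genes that rose in KO and 14.9% of 94 that rose in WT. It was 11.2% of 286 genes that fell in KO and 14.9% of 241 that fell in WT. These genes were selected on the same values, so the shares are no support.

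The response itself differed between genotypes for 240 genes, 1.88% of those tested (limma adjusted p below 0.05). The change in KO was above that in WT for 140 genes (1.1%) and below it for 100 genes (0.784%), by over 2-fold for 33 (0.259%) and 18 (0.141%). At an unadjusted p below 0.05 there were 1635. The median SE of the difference in response was 0.158, against 0.112 for each response alone. The count rested on the untreated arrays, which number 2 a genotype: it was 61 without KO untreated 1, 92 without KO untreated 2, 88 without WT untreated 1 and 89 without WT untreated 2. The split of 140 above and 100 below became 105 and 138 without WT irradiated 1. It was 1005 with array weights, and 6 with all 20 arrays in 1 fit, where 66 of the 72 called genes named here lost their call. In the main fit and in each of the 10 fits without 1 array, 46 genes were called (29 above, 17 below).

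**Figure D2:**
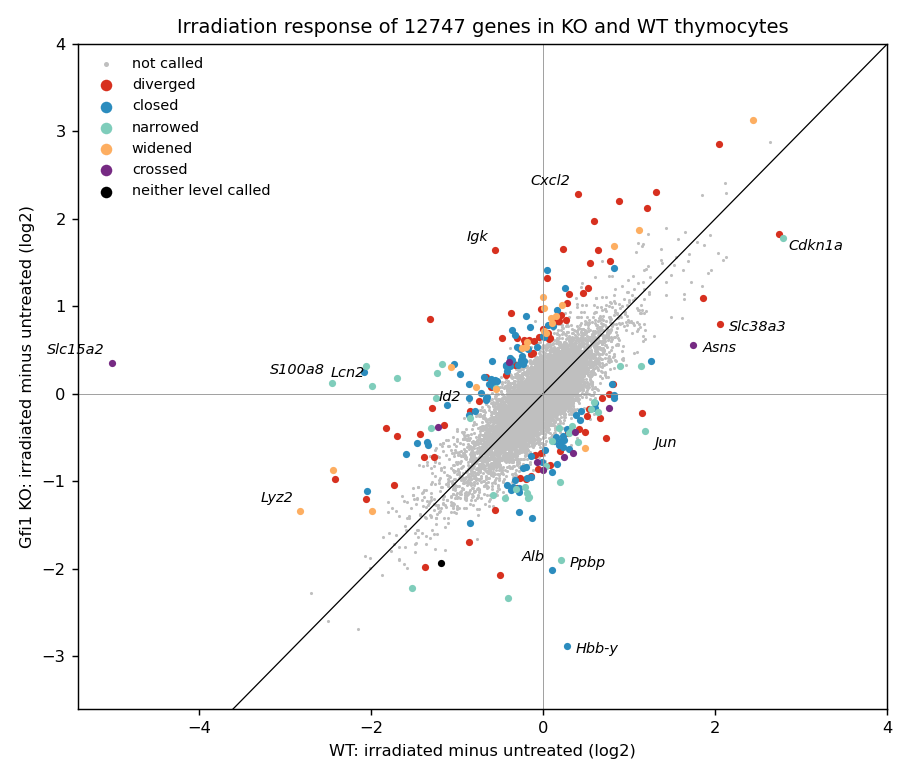
Change on irradiation in KO thymocytes (y axis, 3 against 2 arrays) and in WT thymocytes (x axis, 3 against 2 arrays) for 12747 genes, log2, with the diagonal of equal change. Coloured points are the 240 genes whose response differed, coloured by how the untreated and irradiated levels compared. Slc15a2 lies far left, with a fall in WT and a small rise in KO, and Hbb-y lies lowest, with a fall in KO.

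These 240 genes were sorted by whether KO and WT differed before and after irradiation. Closed genes, 92 in number (54 with the KO response above the WT response, 38 below), differed in untreated cells and were not called different in irradiated cells. Diverged genes, 81 in number (53 and 28), were not called different in untreated cells and differed in irradiated cells. The difference narrowed without being lost for 35 genes (10 and 25), widened for 21 (20 and 1), and changed sign for 10 (3 and 7). For the remaining gene, Gm13955 (current symbol Trav6d-3), neither level was called. Without KO untreated 1, 13 closed and 27 diverged genes were left. Seen by direction, 47 genes rose in KO with no called change in WT, 35 fell in WT with no called change in KO, 48 fell in KO with no called change in WT, and 19 rose in WT with no called change in KO. Another 21 genes rose in KO and fell in WT, and 10 fell in KO and rose in WT. A missing call in 1 genotype is no sign of no change there, but for these genes the difference between the genotypes itself passed.

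Genes that differed by genotype in untreated cells mostly had no called difference in response. Untreated KO and WT thymocytes differed for 1566 genes (12.3%), irradiated KO and WT thymocytes for 1903 (14.9%). Of the 1566, 158 (10.1%) had a called difference in response and 1408 did not. The 95% interval of the difference in response lay within 0.5 either side of 0 for 429 of these 1408 genes, so a difference over 0.5 on the log2 scale was outside the interval for them. For the other 979 the interval reached further and the data set no such bound. The median width of that interval over all genes was 0.668.

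**Figure D3:**
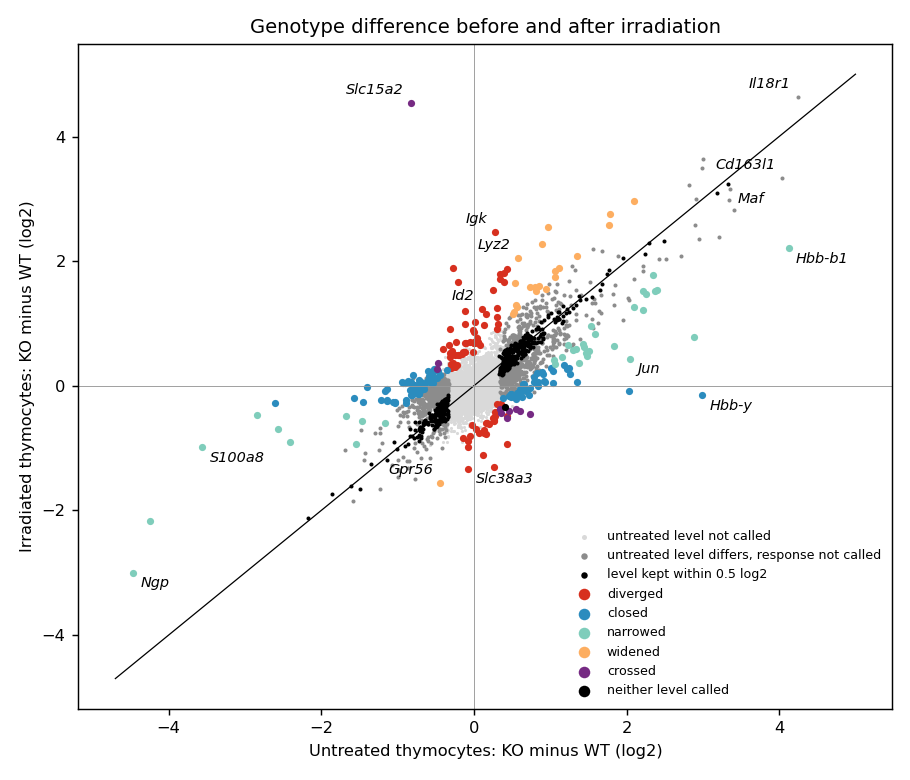
KO minus WT in irradiated thymocytes (y axis) against KO minus WT in untreated thymocytes (x axis), log2, for 12747 genes, with the diagonal of an unchanged difference. Closed genes (blue) lie along the horizontal line at 0, diverged genes (red) along the vertical line at 0, and Il18r1 lies near the upper end of the diagonal.

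Il18r1, a subunit of the interleukin 18 receptor, had the largest untreated difference among genes with no called difference in response. It read 11.43, 11.67 and 11.44 in irradiated KO and 11.64 and 11.72 in untreated KO thymocytes, against 6.77, 6.92 and 6.94 in irradiated WT and 7.43 and 7.42 in untreated WT thymocytes. KO arrays were high with or without irradiation. KO minus WT was 4.63 in irradiated and 4.25 in untreated cells, and the difference in response of 0.39 ± 0.15 was not called (limma adjusted p = 0.249). Its 95% interval ran from 0.07 to 0.70, and Il18r1 fell by 0.55 in WT with -0.16 in KO not called, so it is not among the genes kept within 0.5. Among the genes with the largest untreated differences, the transcription factor Maf (3.16 in irradiated and 3.36 in untreated cells), Sertad4 (3.24 and 3.33) and the ephrin receptor kinase Epha2 (3.09 and 3.19) kept their KO excess, and for Sertad4 and Epha2 the interval lay within 0.5 of 0. The scavenger receptor gene Cd163l1, a marker of gamma delta T cells, read 11.13, 11.53 and 11.22 in irradiated KO and 11.99 and 12.01 in untreated KO thymocytes, against 8.13, 7.59 and 8.18 in irradiated WT and 7.74 and 8.18 in untreated WT thymocytes. The 18 gamma delta and innate-like T cell markers on the array had a log2 summed signal between 14.07 and 14.18 in irradiated KO and between 14.36 and 14.38 in untreated KO, against 12.75 to 12.89 in irradiated WT and 12.90 to 12.96 in untreated WT arrays. The difference in response of Cd163l1, -0.71 ± 0.24, did not pass (limma adjusted p = 0.159), and neither did those of Cdc14b (0.63), Msh4 (-0.59), Zp1 (-0.37) and Zbtb10 (-0.83). The testis gene Tdrd5, a member of the double-positive list, differed between KO and WT by -2.13 in irradiated and -2.17 in untreated thymocytes, and fell by 0.98 in KO and by 1.02 in WT.

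The p53 pathway responded in both genotypes. Over all genes tested, 15.1% rose and 23.7% fell in KO and 13% rose and 21.7% fell in WT, with medians of -0.02 in both. Of 49 p53 targets tested, 25 rose and 11 fell in KO (median 0.34) and 22 rose and 8 fell in WT (median 0.23). The response differed for 1 upward (Ddb2) and 1 downward (Cdkn1a), 4.08% against 1.88% of all genes, and the median difference over the list was 0.03. Phlda3, an inhibitor of AKT signalling, read 11.01, 10.63 and 11.27 in irradiated KO and 8.12 and 8.05 in untreated KO thymocytes, against 10.85, 10.70 and 10.78 in irradiated WT and 8.13 and 8.15 in untreated WT thymocytes. The irradiated groups overlapped, and the untreated KO arrays lay just below the untreated WT arrays. It rose by 2.88 in KO and 2.64 in WT, and the difference of 0.24 ± 0.20 was not called (limma adjusted p = 0.695). No difference in response was called either for the kinase Plk2 (1.81 in KO, 1.94 in WT), the stress protein Sesn2 (1.61 and 2.03), the cyclin-like Ccng1 (1.07 and 0.99), the nuclease Aen (0.66 and 0.75), the RNA-binding Zmat3 (0.62 and 0.62) and the p53 antagonist Mdm2 (0.60 and 0.37). Among killers of the BCL2 family, Bbc3 rose by 1.42 in KO and 1.17 in WT, Pmaip1 by 0.84 and 0.61, and Bcl2l11 by 0.87 and 0.90, with differences in response of 0.25 ± 0.22, 0.24 ± 0.21 and -0.03 ± 0.16 that were not called (limma adjusted p = 0.736, 0.72 and 0.976). Fas fell by 0.29 in KO, and its -0.24 in WT, the responses of Gadd45a (0.36 in KO, called, and 0.15 in WT, not called) and those of Trp53inp1 (0.01 and -0.08) did not differ by a called amount. No single-gene probe set names Bax or Trp53, and Eda2r was too dim to test.

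Cdkn1a, which encodes the cyclin-dependent kinase inhibitor p21, was induced less in KO. It read 10.61, 10.23 and 10.59 in irradiated KO and 8.77 and 8.51 in untreated KO thymocytes, against 10.84, 11.01 and 11.01 in irradiated WT and 8.12 and 8.30 in untreated WT thymocytes. The irradiated KO arrays all lay below the irradiated WT arrays, while the untreated KO arrays lay above the untreated WT arrays. It rose by 1.83 in KO and 2.74 in WT, a difference in response of -0.91 ± 0.18 (limma adjusted p = 0.0125, 5 of 5 probe sets of that sign). The untreated levels differed by 0.43 (limma adjusted p = 0.0544) and the irradiated levels by -0.48 (limma adjusted p = 0.00712). Leaving out WT untreated 1 or KO untreated 1 ended the call, with a limma adjusted p of up to 0.136 and a difference from -1.04 to -0.78 over the fits without 1 array. Ddb2, a sensor of damaged DNA in nucleotide excision repair, moved the other way. It read 10.33, 10.37 and 10.44 in irradiated KO and 9.65 and 9.54 in untreated KO thymocytes, against 10.27, 10.27 and 10.15 in irradiated WT and 10.24 and 10.11 in untreated WT thymocytes. The 2 untreated KO arrays were low, and the other groups lay close together. It rose by 0.79 in KO, against 0.06 in WT, a difference in response of 0.73 ± 0.14 (limma adjusted p = 0.00899, up to 0.1 without 1 array, lost without WT untreated 1, KO untreated 1 or KO untreated 2).

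The promoters of Cdkn1a and of Slc15a2, the gene with the largest difference in response, and of the neighbours S100a8 and S100a9, which moved together, are shown because the results turn on them. They are the windows from 250 bases before to 50 bases after the annotated starts in RefSeq, build GRCm38.p6, 5′ to 3′ on the strand of the gene, with motif matches in capitals. The motifs searched on both strands were AATCAC (described for GFI1), TGANTCA (a loose form of the AP-1 site, any base at N) and the p53 half-site. The shares of all 32851 windows of this length with a match were 10.4% for AATCAC, 7.81% for TGANTCA and 8.36% for the p53 half-site. No window printed here held more than 1 kind of motif. The first Cdkn1a window (chr17:29090729-29091028, plus strand) held 2 p53 half-sites, starting at bases 178 and 200, and the second (chr17:29093519-29093818, plus strand) none of the motifs. The Slc15a2 window (chr16:36784913-36785212, minus strand) held none. S100a8 (chr3:90668821-90669120, plus strand) held 1 AATCAC on the reverse strand at base 113, and S100a9 (chr3:90695672-90695971, minus strand) 1 p53 half-site at base 93. A match is a run of letters, not a bound site.
Cdkn1a window 1: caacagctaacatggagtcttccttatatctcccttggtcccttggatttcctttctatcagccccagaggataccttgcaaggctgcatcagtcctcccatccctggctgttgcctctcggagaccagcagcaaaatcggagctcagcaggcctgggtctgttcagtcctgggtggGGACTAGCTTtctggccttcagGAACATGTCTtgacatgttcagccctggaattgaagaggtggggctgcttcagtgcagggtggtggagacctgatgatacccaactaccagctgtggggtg
Cdkn1a window 2: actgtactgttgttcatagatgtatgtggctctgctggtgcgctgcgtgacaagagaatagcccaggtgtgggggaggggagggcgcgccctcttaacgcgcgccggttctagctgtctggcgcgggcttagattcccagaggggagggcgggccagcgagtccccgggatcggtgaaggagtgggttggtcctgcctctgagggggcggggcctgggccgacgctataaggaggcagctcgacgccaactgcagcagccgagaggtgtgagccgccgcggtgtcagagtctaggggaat
Slc15a2: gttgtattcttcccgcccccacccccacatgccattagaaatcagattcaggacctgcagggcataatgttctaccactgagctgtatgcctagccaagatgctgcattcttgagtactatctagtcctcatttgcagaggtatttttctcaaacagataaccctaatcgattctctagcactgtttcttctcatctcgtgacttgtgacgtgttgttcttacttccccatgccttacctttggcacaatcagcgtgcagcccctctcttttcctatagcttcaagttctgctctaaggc
S100a8: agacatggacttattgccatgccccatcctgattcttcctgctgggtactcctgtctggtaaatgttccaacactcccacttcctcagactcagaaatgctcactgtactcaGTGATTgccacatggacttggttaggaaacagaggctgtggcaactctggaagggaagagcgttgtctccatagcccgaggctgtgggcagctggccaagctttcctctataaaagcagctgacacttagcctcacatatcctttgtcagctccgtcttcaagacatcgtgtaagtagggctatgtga
S100a9: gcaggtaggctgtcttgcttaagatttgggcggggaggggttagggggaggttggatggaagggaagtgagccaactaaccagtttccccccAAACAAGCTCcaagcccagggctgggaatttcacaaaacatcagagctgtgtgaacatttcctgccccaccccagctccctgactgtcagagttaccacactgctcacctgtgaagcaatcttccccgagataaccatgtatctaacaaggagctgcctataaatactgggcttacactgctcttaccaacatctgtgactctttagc
For Hbb-y and Alb, also among the largest differences, the windows held none of the motifs, and for Ppbp 1 TGANTCA at base 47, reading TGAATCA.

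Slc15a2, a transporter of small peptides, had the largest difference in response. It read 10.36, 10.71 and 10.24 in irradiated KO and 10.03 and 10.14 in untreated KO thymocytes, against 6.05, 5.92 and 5.71 in irradiated WT and 10.92 and 10.89 in untreated WT thymocytes. The 3 irradiated WT arrays were low and the other 7 arrays were high. It rose by 0.35 in KO and fell by 5.01 in WT, a difference of 5.36 ± 0.19 (limma adjusted p = 2.14e-11, 16 of 18 probe sets of that sign). Untreated KO cells were 0.82 below untreated WT cells, so the order of the genotypes changed. Outside the comparison, Slc15a2 ranged from 7.05 to 9.74 in KO and from 5.34 to 8.75 in WT tumours titled ENU, without the Notch transgene. In tumours with the transgene it ranged from 10.34 to 10.41 in KO and from 10.59 to 10.86 in WT. With all 20 arrays in the fit the call was lost (limma adjusted p = 0.182).

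Cxcl2, Ccl3, Clec4e and Il1b had larger responses in KO. Cxcl2, a chemokine that attracts neutrophils, read 8.43, 7.84 and 8.43 in irradiated KO and 5.93 and 5.97 in untreated KO thymocytes, against 6.60, 6.57 and 6.54 in irradiated WT and 6.00 and 6.33 in untreated WT thymocytes. The untreated groups did not differ by a called amount, and all irradiated KO arrays lay above all irradiated WT arrays. It rose by 2.28 in KO and 0.40 in WT, a difference of 1.88 ± 0.21 (limma adjusted p = 0.00012). Ccl3, a chemokine of activated myeloid and T cells, rose by 1.97 in KO and 0.60 in WT (difference 1.37 ± 0.19, limma adjusted p = 0.000884). Clec4e, a receptor of myeloid cells for dying cells and fungi, rose by 1.65 in KO and had a change of 0.23 in WT that was not called (difference 1.42 ± 0.17, limma adjusted p = 0.00018). Il1b rose by 0.60 in KO and had -0.11 in WT, a difference of 0.71 that was lost without WT untreated 1, WT untreated 2 or KO untreated 1 (limma adjusted p = 0.0162, up to 0.222). Cxcl2, Clec4e and Il1b were above the dim level in irradiated KO arrays alone. Of 22 inflammation genes tested, 3 (Cxcl2, Ccl3 and Il1b) had the KO response above the WT response and 1 (Cxcl9) had it below, against 1.1% and 0.784% of all genes. The median difference was 0.13, against -0.01 over all genes. As Cxcl2 and Il1b passed the filter through irradiated KO arrays alone, neither count nor median serves as support. The chemokine Cxcl9 fell by 1.07 in KO and 0.35 in WT and closed (difference -0.72, limma adjusted p = 0.046, up to 0.251, kept without WT irradiated 2 or KO irradiated 3 and lost without any other array). Ptgs2 rose by 1.34 in KO and 0.76 in WT and Tnf fell by 0.68 and 0.73, with differences that were not called (limma adjusted p = 0.0826 and 0.973).

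**Figure D4:**
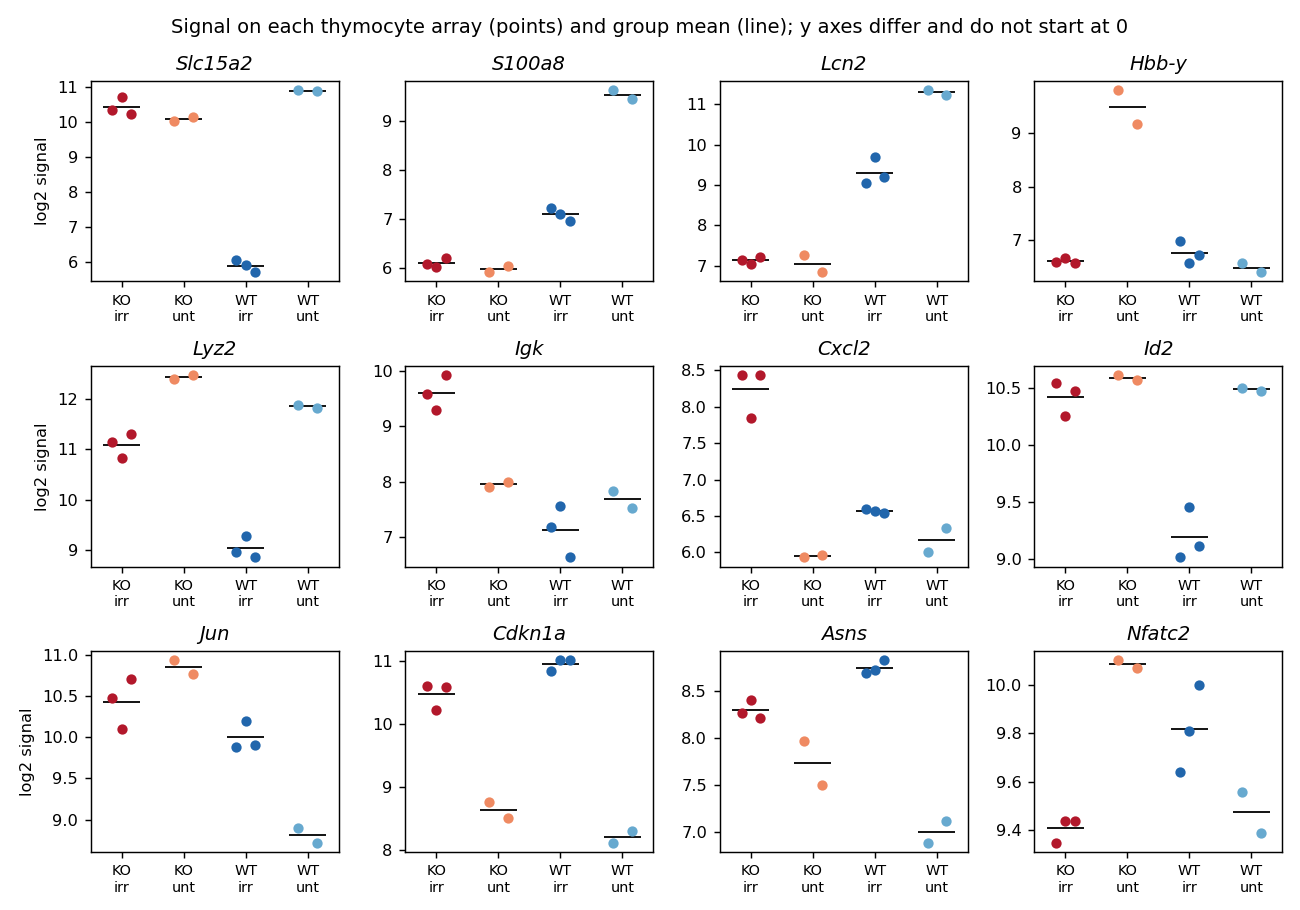
Log2 signal of 12 genes on each thymocyte array (points) with group means (lines), from left to right irradiated KO, untreated KO, irradiated WT and untreated WT. Slc15a2 was low in irradiated WT arrays alone, Hbb-y was high in untreated KO arrays alone, and Cxcl2 was high in irradiated KO arrays alone.

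Macrophage and dendritic cell genes fell less in KO for a few members. Lyz2, the lysozyme of macrophages and granulocytes, read 11.15, 10.84 and 11.30 in irradiated KO and 12.40 and 12.47 in untreated KO thymocytes, against 8.97, 9.29 and 8.86 in irradiated WT and 11.89 and 11.83 in untreated WT thymocytes. It fell by 1.34 in KO and 2.82 in WT, a difference of 1.48 ± 0.19 (limma adjusted p = 0.000453), so a small untreated excess in KO (0.57) widened to 2.06. Its near copy Lyz1, read by 1 probe set, had a difference of 1.45 (limma adjusted p = 0.000207), and signal of the copies may be mixed. Of the 22 list members tested, 4 had the KO response above the WT response (Lyz1, Lyz2, Itgam and H2-Aa) and 0 below. Over all genes the shares were 1.1% and 0.784%. The median difference over the list was 0.28. In each genotype 18 members fell, against 23.7% of all genes in KO and 21.7% in WT. The integrin chain Itgam (0.97, limma adjusted p = 0.00552, 0.0508 without KO untreated 1) diverged. The class II chain H2-Aa (0.65, limma adjusted p = 0.0422) widened, and was lost without each array except WT irradiated 2 and KO irradiated 2 (up to 0.217). Csf1r (-0.12), Cd68 (-0.00) and Tyrobp (-0.21), receptors and markers of macrophages, were not called. The log2 summed signal of the 28 list members on the array lay between 13.99 and 14.33 in irradiated KO and between 15.14 and 15.19 in untreated KO, against 13.28 to 13.35 in irradiated WT and 14.60 to 14.71 in untreated WT arrays. In RNA from a mixed tissue, fewer cells of a type and less RNA per cell cannot be told apart.

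Granulocyte genes formed the largest group of positive differences. S100a8, a calcium-binding alarmin of neutrophils, read 6.09, 6.02 and 6.21 in irradiated KO and 5.91 and 6.05 in untreated KO thymocytes, against 7.22, 7.10 and 6.97 in irradiated WT and 9.64 and 9.45 in untreated WT thymocytes. All KO arrays were dim with or without irradiation, and the WT arrays lost most of their signal on irradiation. It fell by 2.45 in WT and had 0.13 in KO (not called), a difference of 2.57 ± 0.16 (limma adjusted p = 6.63e-08). Its partner S100a9 had a difference of 2.38, the collagenase Mmp8 of 2.33, the iron-binding proteins Lcn2 and Ltf of 2.07 and 1.87, Retnlg of 1.51, the granule protein Ngp of 1.46 and the antimicrobial peptide Camp of 1.38 (limma adjusted p from 6.01e-07 to 0.00266). Ngp and Lcn2 were still 3.00 and 2.17 lower in irradiated KO cells, and Mmp8, Camp and the gelatinase Mmp9 (difference 1.19) were no longer called different. Of 13 tested, 11 were above and 1 below, against 1.1% and 0.784% of all genes. The exception was Mpo, the myeloperoxidase of early granulocyte precursors, which fell by 0.40 in KO and rose by 0.42 in WT (difference -0.81, limma adjusted p = 0.0386, up to 0.306, lost without 7 of the 10 arrays: WT irradiated 1 and 2, KO irradiated 1 and all 4 untreated arrays). These counts cannot serve as support, because members such as S100a8, S100a9, Mmp8, Ltf, Retnlg, Ly6g and Csf3r passed the brightness filter through the untreated WT arrays alone. Without WT untreated 1 or WT untreated 2, 4 members were called, as others were then too dim to test. The log2 summed signal of the 19 members on the array lay between 11.41 and 11.49 in irradiated KO and between 11.28 and 11.34 in untreated KO, against 12.07 to 12.24 in irradiated WT and 13.26 to 13.41 in untreated WT arrays, and 1 of 19 was above the dim level on each KO array.

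The 4 largest negative differences were those of Hbb-y, Alb, Ppbp and Hbb-b1, genes of the erythroid, platelet and liver lists. Other called members of these lists ranked lower, such as Hba-x at 19 and Afp at 37. Hbb-y, a globin of the embryo, read 6.59, 6.66 and 6.58 in irradiated KO and 9.80 and 9.17 in untreated KO thymocytes, against 6.99, 6.57 and 6.73 in irradiated WT and 6.58 and 6.40 in untreated WT thymocytes. Only the 2 untreated KO arrays were bright. It fell by 2.88 in KO and had 0.27 in WT (not called), a difference of -3.15 ± 0.22 (limma adjusted p = 3.7e-07). The plasma protein gene Alb showed the same order at 9.11 and 8.32 in untreated KO arrays and 6.55 to 6.92 in the other thymocyte arrays, with a difference of -2.12 ± 0.24 (limma adjusted p = 0.00012). The platelet chemokine Ppbp had a difference of -2.11, the adult globin Hbb-b1 of -1.92 (1 probe set), the haem synthesis enzyme Alas2 of -1.20 and the embryonic globin Hba-x of -0.99. The red cell anion exchanger Slc4a1 (-0.94, limma adjusted p = 0.0454) was lost without 8 of the 10 arrays, all but KO irradiated 3 and KO untreated 2 (up to 0.355), and Hba-x without WT untreated 1 or 2 (up to 0.0953). Hbb-b1 was bright in irradiated KO cells too (10.45, 9.68 and 10.74, against 8.43, 8.12 and 7.70 in irradiated WT cells). Of 10 list members tested, 6 were below and 0 above, against 0.784% and 1.1% of all genes, with a median of -0.96. Several, such as Hbb-y, Ppbp and Hba-x, passed the filter through untreated KO arrays alone, so neither count nor median serves as support. The count was 2 without KO untreated 1 and 3 without KO untreated 2, where Hbb-y was too dim to test. The log2 summed signal of the 17 members on the array lay between 11.98 and 12.30 in irradiated KO and between 13.41 and 13.67 in untreated KO, against 11.56 to 11.83 in irradiated WT and 11.83 to 11.87 in untreated WT arrays. Alb and Afp passed the filter through untreated KO arrays alone, so the next count supports nothing. Of 10 liver and plasma protein genes, 4 were below, against 0.784% of all genes. They were Alb, Afp (-0.84, limma adjusted p = 0.0135, 0.133 without WT untreated 1), the fetal RNA-binding protein Igf2bp3 (-0.84, limma adjusted p = 0.0205, up to 0.164, lost without any untreated array) and the imprinted RNA H19. The log2 summed signal of the 19 liver markers on the array lay between 12.32 and 12.37 in irradiated KO and between 12.46 and 12.65 in untreated KO, against 12.27 to 12.38 in irradiated WT and 12.22 to 12.27 in untreated WT arrays. H19 fell by 0.51 in KO and rose by 0.73 in WT (difference -1.24 ± 0.20, limma adjusted p = 0.00272), with untreated levels that were not called different. Alb fell by 2.01 and Afp by 1.13 in KO. Igf2bp3 instead rose by 0.83 in WT, with -0.02 in KO not called.

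Some immunoglobulin transcripts rose in KO, and no gene of the B-cell list did. The kappa light chain entry Igk read 9.59, 9.30 and 9.92 in irradiated KO and 7.91 and 8.0 in untreated KO thymocytes, against 7.19, 7.57 and 6.64 in irradiated WT and 7.84 and 7.53 in untreated WT thymocytes. It rose by 1.64 in KO and fell by 0.55 in WT, a difference of 2.20 ± 0.29 (limma adjusted p = 0.000506). Igl-V2 (2.16), Igl-V1 (1.30), Igh-3 (1.28) and Igl-C2 (0.85, limma adjusted p = 0.0407) also had the KO response above the WT response. Thus 5 of 9 immunoglobulin entries were called, against 1.88% of all genes. Igh (0.76, limma adjusted p = 0.0568), Igh-6 (0.42, 0.348), Igk-V21-4 (0.31, 0.804) and Ighvq52.3.8 (0.26, 0.56) did not pass. Of 16 B-cell genes tested, 0 had the KO response above the WT response and 1, the transcription factor Spib, had it below. Over all genes the shares were 1.1% and 0.784%. In each genotype 13 B-cell genes fell, against 23.7% of all genes in KO and 21.7% in WT. Spib rose by 1.15 in WT and had -0.22 in KO (difference -1.37 ± 0.19, limma adjusted p = 0.000737). Spib is also a factor of plasmacytoid dendritic cells. The log2 summed signal of the 18 B-cell markers on the array lay between 12.74 and 12.94 in irradiated KO and between 13.62 and 13.68 in untreated KO, against 12.60 to 12.82 in irradiated WT and 13.22 to 13.39 in untreated WT arrays. Immunoglobulin gene segments share sequence, and their probe sets may read several of them, so the 9 entries may not be independent.

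Jun, Nfatc2, Nfatc1 and Id2 were called among genes of T cell signalling and differentiation. Jun, a component of AP-1, read 10.47, 10.10 and 10.70 in irradiated KO and 10.93 and 10.76 in untreated KO thymocytes, against 9.88, 10.20 and 9.91 in irradiated WT and 8.90 and 8.72 in untreated WT thymocytes. It fell by 0.42 in KO and rose by 1.19 in WT, a difference of -1.61 ± 0.21 (limma adjusted p = 0.000406), and the KO excess of 2.04 narrowed to 0.43. Nfatc2, a factor downstream of calcium signals, fell by 0.67 in KO and rose by 0.34 in WT (difference -1.02 ± 0.16, limma adjusted p = 0.00229), and its relative Nfatc1 fell by 0.61 in KO with 0.21 in WT not called (difference -0.82, limma adjusted p = 0.00623, up to 0.0694, lost without WT untreated 2 or KO untreated 1). KO minus WT of Nfatc2 was -0.41 in irradiated and 0.61 in untreated cells, so the order changed. Id2, an inhibitor of helix-loop-helix factors and a described GFI1 target, read 10.54, 10.25 and 10.47 in irradiated KO and 10.61 and 10.57 in untreated KO thymocytes, against 9.01, 9.45 and 9.11 in irradiated WT and 10.50 and 10.47 in untreated WT thymocytes. It fell by 1.30 in WT and had -0.16 in KO (not called), a difference of 1.13 ± 0.18 (limma adjusted p = 0.00234). The untreated levels were 0.10 apart, and KO minus WT was 1.23 in irradiated cells.

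Further members of T cell lists were called. Cd69, an early activation antigen, fell by 1.20 in KO and 2.06 in WT (difference 0.86, limma adjusted p = 0.00901, up to 0.0785, lost without WT untreated 1 or KO untreated 1). Egr2, an early growth response factor, fell by 1.05 in KO and fell by 1.73 in WT (difference 0.68, limma adjusted p = 0.0167, up to 0.146, lost without any untreated array). Untreated KO minus WT was 0.00 for both. Srf, which drives immediate early genes, rose by 0.51 in WT with -0.25 in KO (difference -0.76, limma adjusted p = 0.0135, up to 0.15, lost without WT untreated 1, WT untreated 2 or KO untreated 1). Klf2, a factor of thymic exit, rose by 0.72 in KO with 0.02 in WT (difference 0.71, limma adjusted p = 0.0195, up to 0.201, lost without KO irradiated 3 or any untreated array). Runx3, a factor of cytotoxic T cells, fell by 0.60 in KO with 0.23 in WT and closed (difference -0.84, limma adjusted p = 0.00831, up to 0.0975, lost without WT untreated 2 or KO untreated 1). The interleukin 2 receptor chain Il2ra fell by 0.78 in KO with -0.07 in WT and changed order (difference -0.71, limma adjusted p = 0.0124, up to 0.123, lost without any untreated array). The pore-forming protein Prf1 fell by 1.17 in KO with -0.16 in WT (difference -1.01 ± 0.17, limma adjusted p = 0.00406). Il23r, a receptor chain of innate-like T cells, fell by 1.35 with -0.28 (difference -1.07, limma adjusted p = 0.00812, lost without WT untreated 2). It was above the dim level in untreated KO arrays alone, so it passed the filter through the group where it was high. Without KO untreated 1 or 2 it was too dim to test. The log2 summed signal of the 25 natural killer and cytotoxic markers lay between 12.96 and 13.26 in irradiated KO and between 13.89 and 13.91 in untreated KO, against 12.53 to 12.64 in irradiated WT and 13.34 to 13.49 in untreated WT arrays. Birc3, an inhibitor of apoptosis, fell by 0.43 in WT with 0.22 in KO (difference 0.65, limma adjusted p = 0.0168, up to 0.143, lost without any untreated array). The share called was 14.7% in the immediate early, 7.41% in the T cell receptor signalling and 11.4% in the mature single-positive list, from 5, 2 and 4 genes, against 1.88% over all genes. Of 34 immediate early genes tested, 3 were above (Cd69, Egr2 and Klf2) and 2 below (Jun and Srf), with a median of 0.02. Of 27 T cell receptor signalling genes, 0 were above and 2 below (Nfatc1 and Nfatc2), with a median of 0.01, and of 35 mature single-positive genes, 2 were above (Cd69 and Klf2) and 2 below (Runx3 and Nfatc1).

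The genes Asns and Slc38a3 rose in both genotypes, and rose less in KO. Asns, the asparagine synthetase, read 8.27, 8.41 and 8.22 in irradiated KO and 7.97 and 7.50 in untreated KO thymocytes, against 8.70, 8.73 and 8.83 in irradiated WT and 6.89 and 7.12 in untreated WT thymocytes. It rose by 0.56 in KO and 1.75 in WT, a difference of -1.19 ± 0.18 (limma adjusted p = 0.00211), and KO minus WT was -0.46 in irradiated and 0.73 in untreated cells. The amino acid transporter Slc38a3 rose by 0.80 in KO and 2.06 in WT from untreated levels 0.07 apart (difference -1.26 ± 0.19, limma adjusted p = 0.00163), and it was above the dim level in irradiated WT arrays alone. Of 27 genes of the ATF4 and amino acid stress list, Asns alone was called (3.7%, against 1.88% of all genes), and the median difference was -0.09, against -0.01 over all genes. Slc38a3 belongs to no list. The metallothionein Mt2, a glucocorticoid- and metal-responsive gene, rose by 1.78 in KO and 2.79 in WT (difference -1.01, limma adjusted p = 0.0435, up to 0.344, lost without 8 of the 10 arrays, all but KO irradiated 1 and KO untreated 2).

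Further genes with large differences fell outside these groups. The adhesion receptor Gpr56 fell by 0.62 in KO and rose by 0.49 in WT and was the 1 gene below that widened (difference -1.11 ± 0.16, limma adjusted p = 0.00148). The actin bundler Pls3 fell by 1.42 in KO with -0.12 in WT, and the fatty acid transporter Slc27a6 by 1.20 with -0.18 (differences -1.29 and -1.02). Both were above the dim level in untreated KO arrays alone, so they had passed the filter through the group where they were high, as had Atp6v0d2 through irradiated KO and Cnga1 through untreated WT arrays. Rasgrp3, an activator of RAS proteins, rose by 0.31 in KO and fell by 1.07 in WT (difference 1.38 ± 0.15, limma adjusted p = 6.29e-05). The kinase Camk1g rose by 1.42 in KO with 0.05 in WT and closed (difference 1.37), and Dtx3, a relative of the Notch regulator Deltex, rose by 0.73 in KO and fell by 0.36 in WT and closed (difference 1.09). Eya1, a developmental transcriptional cofactor, rose by 0.98 in KO with 0.01 in WT (difference 0.97 ± 0.15), the splicing regulator Esrp1 by 1.69 and 0.83 (difference 0.86, limma adjusted p = 0.0039, 0.0508 without KO untreated 1) and the proton pump subunit Atp6v0d2 by 1.11 with -0.00 (difference 1.11 ± 0.17), and all 3 widened a KO excess. The membrane protein Emp1 widened as well (0.86, limma adjusted p = 0.0128, up to 0.105, lost without any untreated array), as did the matrix protein Fn1 (0.74, limma adjusted p = 0.0373, up to 0.24, lost without WT irradiated 1, KO irradiated 1 or any untreated array). The heat shock protein Hsph1 (-0.87, 0.0574 without KO untreated 1), the adaptor Apbb2 (-0.95), the carboxypeptidase Cpd (-0.93, up to 0.145, lost without WT untreated 2 or KO untreated 1) and the Notch cofactor Zmiz1 (-0.80, up to 0.0731, lost without WT untreated 2 or KO untreated 1) changed order, with limma adjusted p from 0.00231 to 0.014. The channel subunit Cnga1 changed order in the other direction (0.84, limma adjusted p = 0.00831, 0.112 without KO untreated 1).

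Several lists had 0 members called for a difference in response by limma. With 1.88% called over all genes, 0 calls in lists of this size are near the background and are no result about them. The counts of rises and falls below stand beside the shares over all genes tested. Of these, 15.1% rose and 23.7% fell in KO, and 13% rose and 21.7% fell in WT. Of 49 DNA replication genes, 28 rose in KO and 31 in WT (medians 0.36 and 0.46). Of 61 mitosis genes, 27 fell in KO and 32 in WT (medians -0.22 and -0.32). Of 25 histone genes, 12 fell in each genotype, and of 48 ribosome biogenesis and MYC target genes, 22 fell in KO and 14 in WT. Myc itself fell by 1.79 in KO and 1.76 in WT, a difference of -0.03 ± 0.15. The 42 DNA repair, 45 oxidative phosphorylation, 28 double-positive thymocyte, 19 cholesterol synthesis, 18 glycolysis, 14 pro-apoptotic and 5 caspase genes tested also had 0 called. Of 44 interferon response genes, 36 fell in KO and 38 in WT, and 1, Oas2, was called (0.55, limma adjusted p = 0.0492, up to 0.29, kept without WT irradiated 1 and lost without any other array). The survival genes Mcl1 (0.26), Bcl2 (0.17) and Bcl2l1 (-0.02), Il7r (0.12) and Gfi1b (-0.31) were not called.

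**Figure D5:**
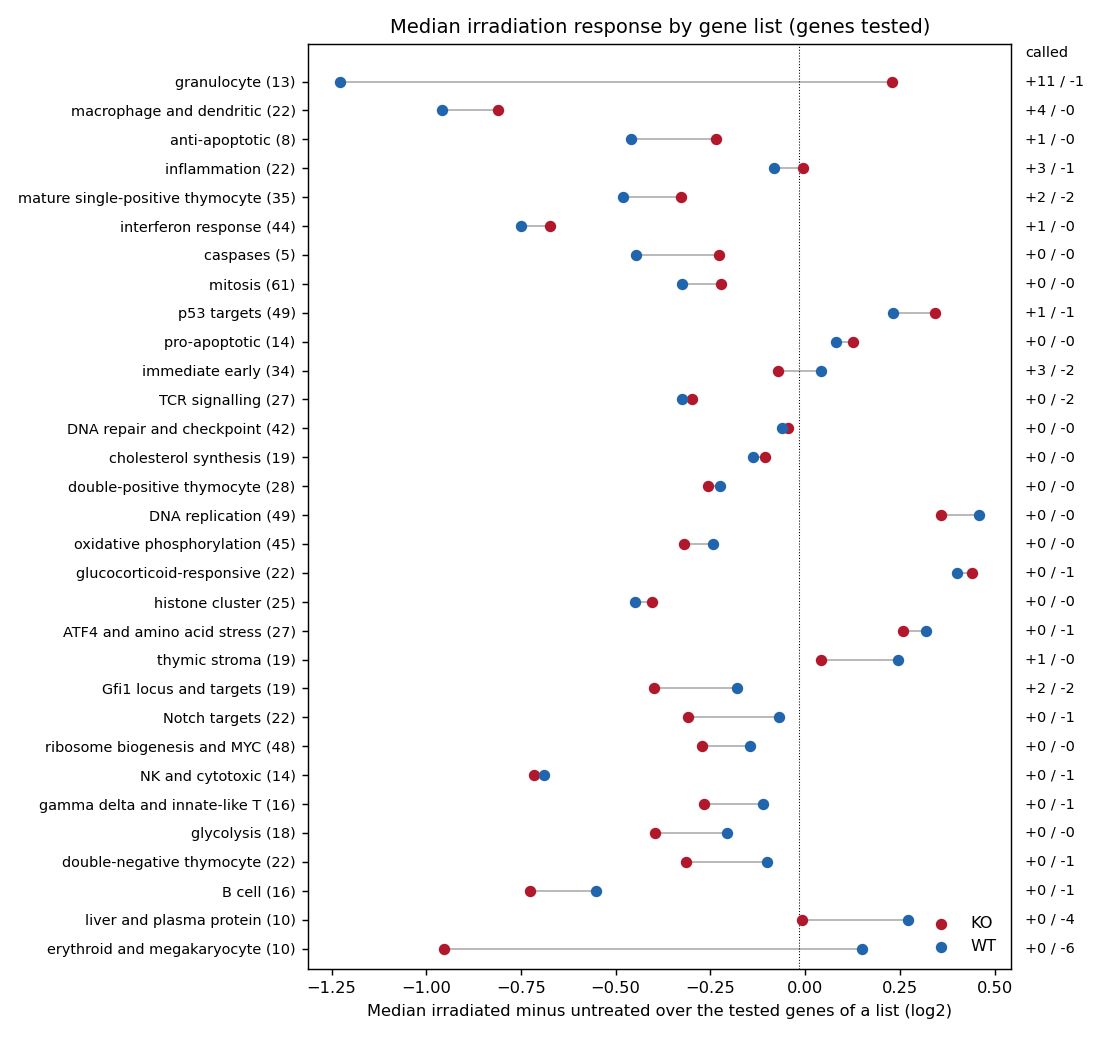
Median change on irradiation over the tested members of each gene list, in KO and in WT (log2), with the number of members called for a difference in response at the right (KO response above / below the WT response). Lists run from the highest to the lowest median difference. The 2 widest gaps are the granulocyte and the erythroid and megakaryocyte lists. Several called members of each passed the brightness filter through 1 group of arrays alone.

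Markers of other cell types and immunoglobulin genes made up 34 of the 240 genes (21 above, 13 below). Of the 112 such genes tested, 30.4% were called, against 1.88% of all genes. Several of the called ones, such as S100a8 and Hbb-y, passed the brightness filter only through the group where they were high. Neither their number nor their share therefore supports anything about these cell types. The other 206 called genes (119 above, 87 below) lay outside these lists. The lists do not hold every gene of such cells, and Clec4e, a receptor of myeloid cells, was among the 206. Of the 240, 34 were above the dim level in the arrays of 1 group only: 15 in untreated KO, 12 in untreated WT, 6 in irradiated KO and 1 in irradiated WT. Over all genes tested there were 234. The part of cell composition in the differences in response was not tested.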

How the data were processed

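The table deposited for the series holds the authors' processed values for 182058 probe sets on all 20 arrays, read as log2 signal from their range (3.37 to 15.01). The log base, background correction and normalization are not stated in the labels or the file, so a fold holds only if the base is 2. Per the labels' protocols, RNA was amplified with a NuGEN kit and labelled with biotin. Medians of the 10 thymocyte arrays over the 12747 genes tested lay between 9.21 and 9.43. The number of arrays limits the precision.

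Names came from the platform annotation: 167016 probe sets name 1 gene and were used, 3388 name several and 11654 list none. Of 19607 gene symbols, 19558 are current in or traced to RefSeq (GRCm38.p6). Probe sets were centred over the 20 arrays. The median of these centred values over a gene's probe sets, plus the mean of their means, gave its value. Genes above the 40th percentile of an array on at least 2 of the 10 arrays were tested.

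Group means were fitted on the 10 arrays with limma 3.58.1 (lmFit, eBayes; R 4.3.3, the data.table package at version 1.17.8), with Benjamini-Hochberg adjustment in each of 5 comparisons and a threshold of 0.05. Figures used Python 3.11.15 and matplotlib 3.10.9. The statistic was tested on simulated data. Replicate numbers did not pair the arrays: same-numbered arrays had correlations of deviations from -0.467 to 0.22, and 4 of 13 were over 0.1.

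The members, the 31 gene lists and the rules were chosen with earlier results of these data known. Named genes are Gfi1, the 15 largest differences in response each way, the 8 largest in each class, the 10 largest untreated differences without a called difference in response, up to 6 called members a list, and a fixed list of p53, survival and lineage genes. Predicted genes may be left unnamed. Tdrd5, Csf3r, Ly6g, Csf1r, Cd68, Tyrobp, Ptgs2, Tnf and the other immunoglobulin entries were chosen after their values were seen. Alternatives were other normalizations, filters, probe set summaries, variance models, all 20 arrays, the replicate block and leaving out each array.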

Additional observations from a re-analysis of the deposited data

Results flagged for a closer look

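The irradiation response of 240 genes differed between genotypes by limma's test of the difference itself. Among the named genes, some passed in both genotypes with opposite signs. The KO response was upward and the WT response downward for Slc15a2 (difference in response 5.36), Igk (2.2), Igl-V2 (2.16), Retnlg (1.51), Camp (1.38), Rasgrp3 (1.38) and Dtx3 (1.09). The KO response was downward and the WT response upward for Zmiz1 (-0.8), Mpo (-0.81), Nfatc2 (-1.02), Gpr56 (-1.11), H19 (-1.24) and Jun (-1.61). Values are log2, KO minus WT. All KO values of Retnlg and Camp lay below the dim level at both treatments, so the upward sign of their KO responses carries little weight.

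Probe sets left out of the gene values were tested in the same way. Of 5967 bright probe sets with no gene listed, 4 were called (0.067%), and of 1791 that name several genes, 7 were called (0.391%), against 120 of 113832 probe sets that name 1 gene (0.105%).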

How the results depend on the processing

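The count of 240 genes became 256 with quantile normalization, 211 with arrays centred on their medians, 188 without a filter, 230 with a stricter one, 280 with the mean of probe sets, 268 for genes with 3 or more probe sets, 274 with a trended robust variance and 206 without markers of other cell types, an alternative chosen after seeing the data. With a replicate block it was 196, of which 193 were among the 240. The calls of H2-Aa, Oas2 and Gm13955, the gene with neither level called, were lost among the named genes. Asking also for a 2-fold difference left 51. With array weights it was 1005, with 3518 genes for untreated KO minus WT, 275 diverged and 430 closed genes. With all 20 arrays in 1 fit it was 6, with 806 and 575 genes for the KO and WT responses, 121 and 157 for KO minus WT in untreated and irradiated cells, 0 diverged, 4 closed, 4 granulocyte and 1 erythroid gene. The cause was not tested. Of 72 called genes named, 66 lost their call in that fit. S100a8, S100a9, Ltf, Camp, Alb and Hbb-y kept theirs in every alternative that tested them. S100a8, S100a9 and Ltf were too dim to test once WT untreated 1 or 2 was left out. The same held for Alb and Hbb-y once KO untreated 1 or 2 was left out. These genes, unlike Camp, passed the filter through those arrays alone, so their kept calls are no support. Gfi1 reversed with the mean of its probe sets (0.18).

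Without 1 array in turn, the count ran from 61 to 299, the KO response from 2678 to 5413, the WT response from 2111 to 5128, KO minus WT from 716 to 1833 in untreated and from 1432 to 1972 in irradiated cells, diverged genes from 27 to 99, closed genes from 13 to 109, granulocyte genes from 4 to 12 and erythroid genes from 2 to 6. Of the 72 named genes called, 41 were called in every such fit that tested them. Where 1 untreated array is left, it is assumed to vary like the other groups. Signal near the dim level limits the fold of genes bright in 1 group.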

Other observations

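The embryonic globin Hbb-bh1, too dim to test, ranged from 5.41 to 5.63 in irradiated KO and from 7.10 to 7.96 in untreated KO thymocytes, against 5.45 to 5.62 in irradiated WT and 5.31 to 5.46 in untreated WT thymocytes. It lay between 5.45 and 5.90 in the tumour arrays. The untreated KO arrays were highest, as for Hbb-y and Alb.

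The Y-linked genes Uty and Kdm5d were bright on all 10 thymocyte arrays (9.58 to 10.26 and 9.65 to 10.48) and Xist was dim (6.10 to 6.53). Eif2s3y, a translation factor gene of the Y chromosome, read 10.99 to 11.29 in irradiated KO and 10.32 to 10.53 in untreated KO, against 10.90 to 11.12 in irradiated WT and 11.28 to 11.45 in untreated WT thymocytes. Its difference in response was 1.00 ± 0.17 (limma adjusted p = 0.0039), while those of Uty (0.12) and Kdm5d (0.43) were not called (limma adjusted p = 0.873 and 0.386).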
